A study of Mus musculus with 12 samples.

Results

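Npy, the gene of neuropeptide Y, was followed through all 12 libraries of a bulk RNA-seq. study of mouse osteoclasts that had been exposed to eosinophils. It is 1 gene of the 47643 in the count table, and it was chosen because its counts were higher in OCsEo than in OCsEoS and higher in OCsEoS than in OCsCtr. Its own levels and fold changes are therefore given as a description, with no test.

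Neuropeptide Y is an amidated peptide transmitter that is best known from the hypothalamus and from sympathetic nerve endings, where it is stored with noradrenaline. It is cut from a longer precursor by proprotein convertases, trimmed and amidated, and it acts on Y receptors that couple to Gi proteins and lower cAMP. Dipeptidyl peptidase 4 and other peptidases shorten it outside the cell. In bone, the peptide reaches cells from sympathetic fibres, and Y receptor signalling is known to restrain bone formation by osteoblasts.

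BALB/c wildtype mice gave the bone marrow-derived monocytes (BMMs), which were turned into osteoclasts in medium with M-CSF and RANKL, the cytokines that drive osteoclast formation, and all cultures were harvested on day 3. OCsCtr received no stimulus. OCsEo received sorted eosinophils of IL-5tg/4get mice from day 0 for 48 h at 1 BMM to 2 eosinophils, and OCsEoS received eosinophil supernatant at a dilution of 1:2 for the same time. Cells were then washed and kept in fresh medium until harvest. Each group had 4 libraries, which the study's methods call biological replicates. Neither the labels nor the methods say whether these were separate mice or separate cultures. The legend of the study's figure with these data states that its symbols stand for individual mice. The eosinophils carried an IL-5 transgene, which expands this cell type, and were not wildtype cells. No label named a batch, and the libraries held 27837530 to 40327869 counts in all.

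The Npy gene (ENSMUSG00000029819) lies on the plus strand of chromosome 6 at 49822710 to 49829507 in GRCm38. Its 4 exons add up to 566 bases, of which 291 bases in exons 2 to 4 are coding, and no other gene of the table overlaps it, so that its counts cannot be shared with an overlapping transcript. The 250 bases before the transcription start, from RefSeq on GRCm38.p6, are printed because Npy transcripts start next to them. In this sequence (chr6:49822460-49822709, plus strand, 5′ to 3′), the capitals mark a GC box and a TATA-like element:
Npy promoter: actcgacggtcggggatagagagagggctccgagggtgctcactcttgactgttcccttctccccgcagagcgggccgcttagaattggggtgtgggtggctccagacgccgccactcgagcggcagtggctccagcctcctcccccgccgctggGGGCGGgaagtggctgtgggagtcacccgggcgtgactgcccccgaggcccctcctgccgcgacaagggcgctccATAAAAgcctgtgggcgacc

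The GC box, GGGCGG, was present in 32.7% of 32851 RefSeq promoter windows of this length on either strand, and the TATA-like letters, ATAAAA, in 17% of them. The window held no match on either strand to the cAMP response element TGACGTCA, to its core TGACG, to the AP-1 element TGANTCA, to the E-box CACGTG or to the antioxidant element core TGACNNNGC. These were found in 1.55%, 17.8%, 6.75%, 6.02% and 10.2% of the windows, and the core TGACG overlaps the full element. The window had a GC content of 69.2%, against a median of 52.4% over all windows. A match is a run of letters and not a bound site.

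Npy was higher in both stimulated groups than in OCsCtr, and more so with eosinophils than with their supernatant. In OCsCtr the 4 libraries held 8.77, 7.18, 6.12 and 10.3 CPM (counts scaled to a common library size, with TMM as the normalization for library composition). In OCsEoS they held 19.5, 13.6, 13.8 and 19.3 CPM. In OCsEo they held 37.2, 30.5, 39.1 and 42.7 CPM. The 3 groups did not overlap: the lowest OCsEoS library lay 1.32-fold above the highest OCsCtr library, and the lowest OCsEo library lay 1.56-fold above the highest OCsEoS library. The group means were 8.09 ± 1.83 CPM in OCsCtr, 16.5 ± 3.29 CPM in OCsEoS and 37.4 ± 5.14 CPM in OCsEo (SD, n = 4). These values came from 208 to 331, 465 to 661 and 1146 to 1524 raw counts per library.

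**Figure D1:**
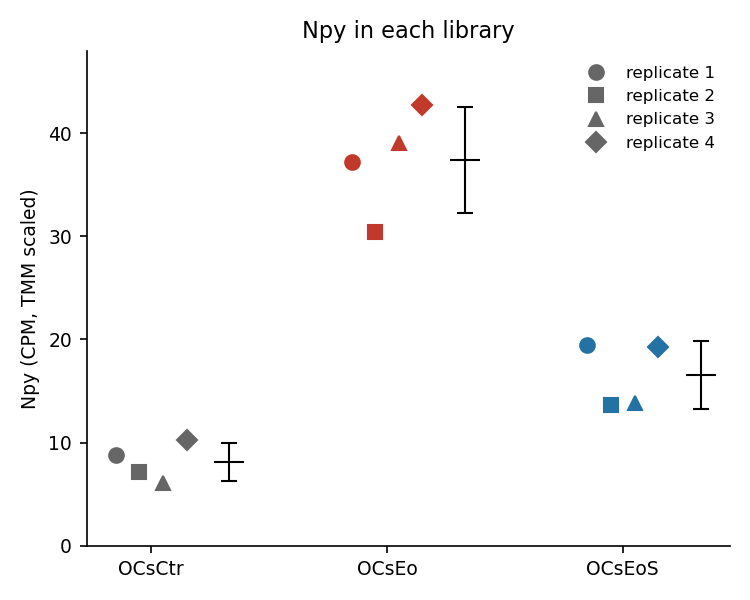
Npy in CPM (TMM scaled, linear axis from 0) in the 12 libraries, with groups on the horizontal axis, 1 point per library and a horizontal mark with bars for the mean ± SD of 4 libraries. OCsCtr libraries sit between 6.12 and 10.3 CPM, OCsEoS libraries between 13.6 and 19.5 CPM and OCsEo libraries between 30.5 and 42.7 CPM, with no overlap between groups.

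The fitted log2 fold change of Npy was 2.21 (SE 0.16) in OCsEo against OCsCtr, a 4.62-fold higher level. In OCsEoS against OCsCtr it was 1.03 (SE 0.16), a 2.05-fold higher level. Both of these comparisons use the same OCsCtr libraries. OCsEoS lay below OCsEo by a log2 fold change of -1.18 (SE 0.16), and the rise in OCsEoS amounted to 28.9% of the rise in OCsEo on the CPM scale. Among the 10631 tested genes whose mean log2 CPM reached 1, the log2 fold change of Npy ranked as number 3 from the top in OCsEo against OCsCtr and as number 42 from the top in OCsEoS against OCsCtr. In OCsEoS against OCsEo it ranked as number 11 from the bottom. In bulk RNA, fewer cells that make a transcript and less of it per cell cannot be told apart.

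Per length, Npy was a transcript of middle to high level in these cultures. Its mean was 14.3 RPKM (CPM per kilobase of gene length) in OCsCtr, 29.2 RPKM in OCsEoS and 66.0 RPKM in OCsEo. It exceeded 69.3% to 78.2% of the tested genes in the OCsCtr libraries, 81.7% to 85.8% in OCsEoS and 90.3% to 92.5% in OCsEo. By comparison, Ctsk, the collagen-degrading protease of osteoclasts, stood at 8017 RPKM in OCsCtr and 5528 RPKM in OCsEo, and Spp1, the matrix protein osteopontin, at 219 RPKM and 348 RPKM.

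The rest of the NPY system was examined through 8 lists with 108 other genes, from the ligands to the transcription factors linked to Npy. Of these, 41 had 0 counts in all 12 libraries, 28 had too few counts to be tested (at most 28 in a library) and 39 were tested. Calls needed both an adjusted p under 0.05 (edgeR quasi-likelihood test, Benjamini-Hochberg over all 13681 tested genes) and a log2 fold change beyond 0.5 in either direction. In OCsEo against OCsCtr, 2 genes rose and 2 fell, which is 10.3% of those tested, whereas 5.88% of all tested genes were called, 3.27% higher and 2.61% lower. In OCsEoS against OCsCtr, 2 rose and 3 fell, which is 12.8%, whereas 7.73% of all tested genes were called, 3.63% higher and 4.11% lower. In OCsEoS against OCsEo, 1 fell, which is 2.56%, whereas 0.380% of all tested genes were called, 0.0731% higher and 0.307% lower. The median log2 fold changes of the 39 genes, -0.05, -0.05 and -0.02, were close to those of all tested genes, -0.01, -0.01 and 0.00.

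The ligands and receptors next to Npy had no reads. Pyy and Ppy, which encode peptide YY and pancreatic polypeptide, and the Y receptor genes Npy1r, Npy2r, Npy4r, Npy5r and Npy6r each had 0 counts in all 12 libraries. With 3 counts as the limit that a count of 0 allows, this leaves levels of up to 0.0744 to 0.108 CPM per library, a limit that covers counting error only. Of the 8 genes for the peptide family and its receptors, only Npy had counts in these libraries.

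Enzymes that could mature the peptide were present at levels that moved little. Furin, a proprotein convertase of the trans-Golgi network, had 65.3 ± 6.87 CPM in OCsCtr, 52.2 ± 3.49 CPM in OCsEo and 52.4 ± 1.53 CPM in OCsEoS. Its log2 fold changes of -0.32 in both comparisons passed the adjusted p (0.0071 and 0.0063) but not the fold threshold. Pam, which amidates peptides, had 61.4 ± 5.62, 59.2 ± 4.71 and 55.1 ± 5.31 CPM in the same order, with log2 fold changes of -0.05 and -0.16 (adjusted p = 0.75 and 0.21). For Pcsk7 and Cpd, a convertase and a carboxypeptidase, the log2 fold changes lay between -0.16 and -0.01, with adjusted p from 0.26 to 0.98. Cpe, the carboxypeptidase of neuroendocrine granules, was at 1.59 ± 0.40, 2.22 ± 0.47 and 1.44 ± 0.49 CPM and was not called in either comparison (adjusted p = 0.39 and 0.83). The convertases of regulated secretory granules were near the limit, with at most 11 counts per library for Pcsk1 and 0 counts in every library for Pcsk2. None of these enzymes had 3 groups that stood apart in the order of Npy, which only 0.263% of all tested genes did.

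Among the tested genes of the peptidase list, only Anpep was called, and whether its product acts on neuropeptide Y was not examined. Anpep encodes aminopeptidase N, a cell surface enzyme that removes N-terminal residues. It had 41.6, 43.6, 48.7 and 51.1 CPM in OCsCtr, 80.7, 74.6, 58.4 and 82.1 CPM in OCsEo and 50.4, 54.6, 48.0 and 55.1 CPM in OCsEoS. All OCsEo libraries lay above the other two groups, which overlapped. Anpep rose in OCsEo (log2 fold change 0.68, SE 0.10, adjusted p = 9.9e-05) and fell in OCsEoS against OCsEo (-0.51, SE 0.10, adjusted p = 0.020). In OCsEoS against OCsCtr it had a log2 fold change of 0.17 (adjusted p = 0.24). The call in OCsEoS against OCsEo was lost without replicate 1, 2 or 4 of OCsEo and without replicate 1 or 3 of OCsEoS, with log2 fold changes of -0.50 to -0.45, so that it stood next to the threshold. Dpp4, the best known peptidase of neuropeptide Y, was low at 1.16 ± 0.36, 1.01 ± 0.57 and 1.43 ± 0.40 CPM in OCsCtr, OCsEo and OCsEoS and was not called (adjusted p = 0.87 and 0.73). The intracellular relatives Dpp8 and Dpp9 had log2 fold changes between -0.26 and -0.10, and for Xpnpep1 and Prep they lay between -0.16 and -0.03.

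On the Gi and cAMP side, 2 of 9 tested genes fell in both stimulated groups and none rose, whereas 2.61% of all tested genes fell in OCsEo and 4.11% in OCsEoS. Adcy3, an adenylyl cyclase, had 227, 252, 233 and 253 CPM in OCsCtr, 136, 162, 140 and 150 CPM in OCsEo and 129, 163, 127 and 128 CPM in OCsEoS. Both stimulated groups lay below all OCsCtr libraries and overlapped each other. Its log2 fold change was -0.72 (SE 0.08, adjusted p = 5.9e-06) in OCsEo and -0.82 (SE 0.08, adjusted p = 2.3e-06) in OCsEoS. Adcy9, a further adenylyl cyclase, had 9.05 ± 1.24 CPM in OCsCtr, 5.02 ± 0.99 CPM in OCsEo and 6.19 ± 0.48 CPM in OCsEoS. It fell in OCsEo (log2 fold change -0.85, SE 0.17, adjusted p = 0.0017) and in OCsEoS (-0.55, SE 0.17, adjusted p = 0.024), and the second call was lost without OCsCtr replicate 2 or 4 and without OCsEoS replicate 1 or 3, with -0.54 to -0.46. Adcy7, also an adenylyl cyclase, had 119 ± 10.7 CPM in OCsCtr, 106 ± 10.1 CPM in OCsEo and 110 ± 14.3 CPM in OCsEoS. Its log2 fold changes were -0.18 and -0.12 (adjusted p = 0.21 and 0.40). The Gi subunits Gnai2 and Gnai3, at 809 ± 23.0 and 194 ± 5.12 CPM in OCsCtr, had log2 fold changes between -0.05 and 0.18.

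**Figure D2:**
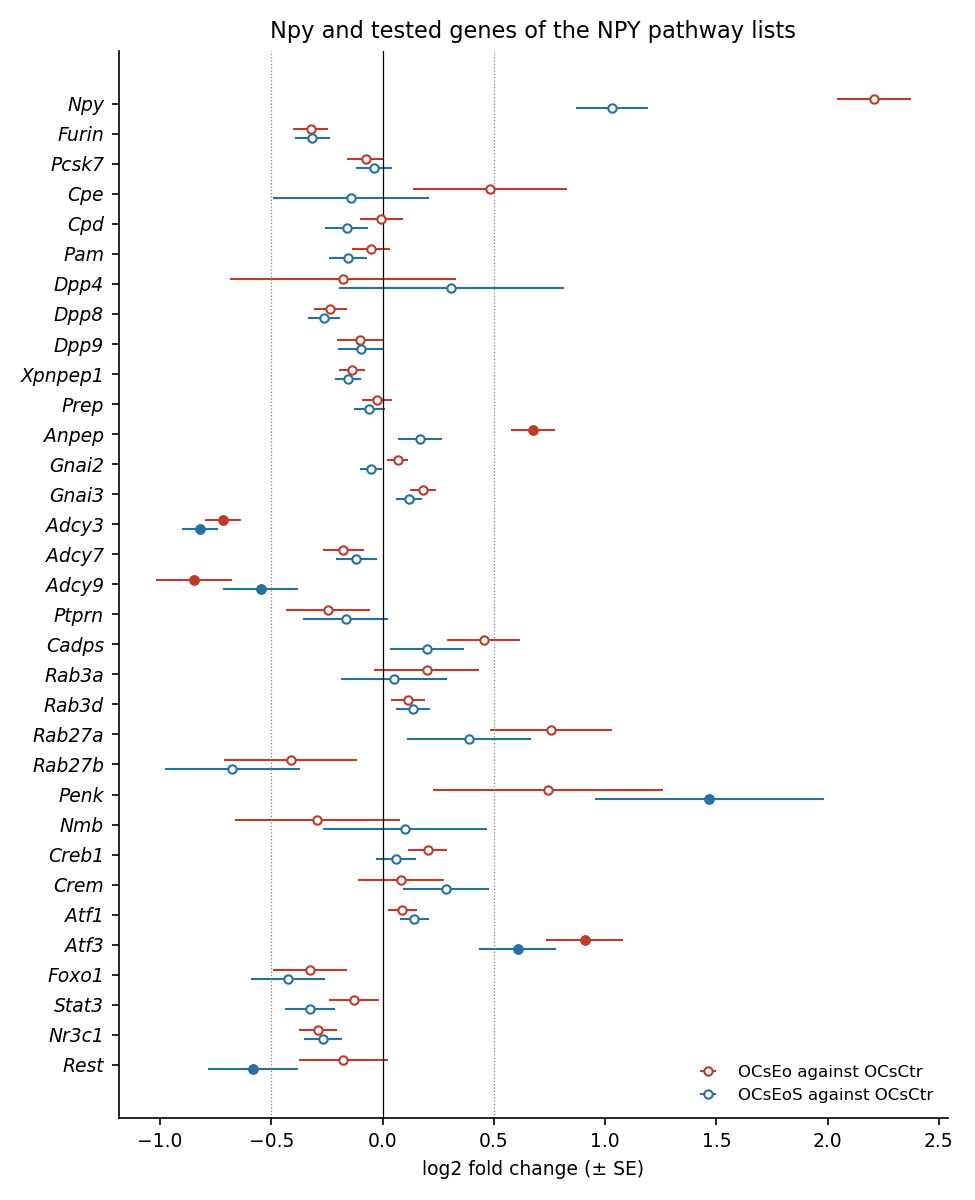
Log2 fold change (horizontal axis, ± SE) of Npy and of the tested genes of the 8 NPY lists with a mean of at least 1 CPM or a call, in OCsEo (red) and OCsEoS (blue) against the same OCsCtr libraries. Filled points are called genes other than Npy, and dotted lines mark log2 fold changes of -0.5 and 0.5. Npy stands at 2.21 and 1.03, whereas the called genes Anpep, Adcy3, Adcy9, Penk, Atf3 and Rest lie between -0.85 and 1.47.

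The machinery of regulated secretion was detected in part. Rab27a, a small GTPase of secretory lysosomes, had 2.80 ± 0.87 CPM in OCsCtr, 4.72 ± 1.46 CPM in OCsEo and 3.65 ± 0.86 CPM in OCsEoS, with log2 fold changes of 0.76 and 0.39 that did not pass (adjusted p = 0.064 and 0.35). Cadps, a priming factor of dense-core vesicles, had 9.49 ± 2.36, 13.0 ± 1.57 and 10.9 ± 1.52 CPM, with log2 fold changes of 0.45 and 0.20 (adjusted p = 0.063 and 0.44). Rab3d, a GTPase that osteoclasts use for vesicle traffic, had log2 fold changes of 0.11 and 0.14 (adjusted p = 0.35 and 0.22). Those of Rab27b were -0.41 and -0.67 (adjusted p = 0.40 and 0.12). For Ptprn they were -0.25 and -0.17, and for Rab3a 0.20 and 0.05 (adjusted p from 0.43 to 0.91). None of the 6 tested genes of this list was called in any comparison. The granule proteins Chga and Chgb had at most 4 and 6 counts in a library, and Scg2 and Scg3 had 0 counts throughout.

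Npy was nearly alone among neuropeptide genes. Of 38 other neuropeptide genes, 23 had 0 counts in every library, 12 were counted too rarely to be tested and 3 were tested, namely Pomc, Penk and Nmb. Penk, the proenkephalin gene, had 0.52, 0.42, 0.77 and 1.55 CPM in OCsCtr, 1.43, 0.53, 1.85 and 1.66 CPM in OCsEo and 2.63, 2.66, 3.06 and 0.70 CPM in OCsEoS, and the groups overlapped. It was called in OCsEoS (log2 fold change 1.47, SE 0.52, adjusted p = 0.046) but not in OCsEo (0.74, SE 0.52, adjusted p = 0.37), and its difference between OCsEoS and OCsEo was not called (adjusted p = 0.63). The call was lost without OCsCtr replicate 1, 2 or 3, OCsEo replicate 1 or 4, or OCsEoS replicate 1, 2 or 3, with log2 fold changes of 1.25 to 1.47. Nmb, the neuromedin B gene, had 1.89 ± 0.20, 1.54 ± 0.30 and 2.03 ± 1.08 CPM and was not called (adjusted p = 0.66 and 0.89). None of the 3 tested genes had 3 groups that stood apart in the order of Npy, against 0.263% of all tested genes.

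Among transcription factors linked to Npy, 9 of 11 were tested. Atf3, a stress-induced factor that binds cAMP response elements, had 6.10, 4.90, 5.95 and 8.15 CPM in OCsCtr, 12.5, 10.0, 10.5 and 14.1 CPM in OCsEo and 11.4, 9.84, 7.60 and 9.42 CPM in OCsEoS. It rose in OCsEo (log2 fold change 0.91, SE 0.17, adjusted p = 0.0011) and in OCsEoS (0.61, SE 0.17, adjusted p = 0.015), with a single OCsEoS library inside the range of OCsCtr. The call in OCsEoS was lost without OCsCtr replicate 2 (0.51) or OCsEoS replicate 1 (0.52). Rest, which silences neuronal genes, had 11.7, 13.6, 12.4 and 14.6 CPM in OCsCtr and 8.36, 12.6, 8.55 and 5.36 CPM in OCsEoS. It fell in OCsEoS (log2 fold change -0.58, SE 0.20, adjusted p = 0.044), with -0.18 in OCsEo (adjusted p = 0.62). That call was lost without OCsCtr replicate 2, 3 or 4 or OCsEoS replicate 1, 3 or 4, with log2 fold changes of -0.60 to -0.40. Creb1, Crem and Atf1, which bind the cAMP response element, had log2 fold changes between 0.06 and 0.28 and were not called. Nr3c1, the glucocorticoid receptor, had -0.29 and -0.27, which passed the adjusted p (0.023 and 0.028) but not the fold threshold. Foxo1 had 7.83 to 12.3 CPM in OCsCtr, 7.02 to 8.77 CPM in OCsEo and 5.73 to 7.58 CPM in OCsEoS. Stat3 had 26.5 to 33.7, 24.4 to 33.0 and 21.5 to 25.4 CPM in the same order, and neither gene was called.

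No neighbour of Npy on chromosome 6 passed the call. Of the 10 genes that start within 500 kb, 4 were tested, 5 had 0 counts in every library and 1, the pseudogene Gm17060, had a single count. Mpp6, a scaffold protein, had 73.7 ± 4.22 CPM in OCsCtr, 89.8 ± 1.67 CPM in OCsEo and 86.3 ± 8.76 CPM in OCsEoS, with log2 fold changes of 0.29 and 0.23 (adjusted p = 0.010 and 0.031). Dfna5, which encodes gasdermin E, had 16.3 ± 2.16, 22.2 ± 3.17 and 17.1 ± 3.33 CPM, with log2 fold changes of 0.45 and 0.08 (adjusted p = 0.030 and 0.76). Both genes overlap on opposite strands, and without a stated strand setting, reads in the overlap cannot be told apart. Other named genes also overlap a further protein-coding gene, with the same limit for reads in a shared stretch. Among them are Adcy3, Nmb, Stat3, Pcsk7, Rab3a, Mmp12, Syngr1, Vat1, Nt5dc2 and Pias3. Osbpl3, an oxysterol-binding protein gene, had -0.02 and -0.14, and Fam221a was at or below 1.25 CPM in every library. In edgeR none was called in any of the 3 comparisons, while at an unadjusted p under 0.05 there were 2, 1 and 1 in OCsEo against OCsCtr, OCsEoS against OCsCtr and OCsEoS against OCsEo, and DESeq2 called none. Of all tested genes, 29.7%, 34.3% and 11.1% had such a p. Dfna5 passed the call in OCsEo without OCsCtr replicate 4 (0.53) or OCsEo replicate 4 (0.51).

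Few genes had the graded pattern of Npy. In 36 of the 13681 tested genes, which is 0.263%, all 4 OCsEo libraries lay above all 4 OCsEoS libraries, which in turn lay above all 4 OCsCtr libraries. The reverse order was seen in 12 genes, 0.0877%. The order with OCsEoS on top and OCsCtr at the bottom was seen in 23 genes, 0.168%, and the order with OCsCtr on top and OCsEoS at the bottom in 27 genes, 0.197%. The orders with OCsCtr in the middle were seen in 2 genes with OCsEo on top, 0.0146%, and in 1 gene with OCsEoS on top, 0.00731%. Since these genes were chosen by their levels, their values are a description.

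Npy had the highest log2 fold change in OCsEo of these 36 genes. Next came Mmp12, the macrophage elastase, with 35.7, 65.6, 48.6 and 54.9 CPM in OCsCtr, 203, 170, 179 and 199 CPM in OCsEo and 128, 113, 120 and 123 CPM in OCsEoS. Its log2 fold changes were 1.87 and 1.24 in OCsEo and OCsEoS against OCsCtr. Like Npy it had 3 groups apart, but its OCsEoS libraries stood nearer to the OCsEo libraries. Sepw1, a small selenoprotein gene, had log2 fold changes of 1.34 and 0.43. For Fabp5, a fatty acid-binding protein, they were 1.20 and 0.57, and for Cd5l, a secreted macrophage protein, 1.19 and 0.60. Fabp5 and the pseudogene Gm6166 may share reads with near-identical copies, so their levels are uncertain.

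The remaining genes with the largest changes in this order were Pir (1.18 and 0.79), Ccl6 (1.12 and 0.54), Maoa (1.12 and 0.66), Gm6166 (1.07 and 0.54) and Syngr1 (1.03 and 0.40), given as log2 fold changes in OCsEo and OCsEoS against OCsCtr. Pir encodes an iron-binding nuclear protein, Ccl6 a chemokine of macrophages, Maoa a monoamine oxidase that degrades noradrenaline and serotonin, and Syngr1 a protein of synaptic-like vesicles. Over the 36 genes, the log2 change in OCsEoS was 31.8% to 79.5% of that in OCsEo, with a median of 56.2%, and for Npy it was 46.7%. Npy therefore stood inside this range and below its median. In the reverse order, the largest falls were those of Dgki (-1.43 and -0.75), Cd5 (-0.75 and -0.55), Ank (-0.69 and -0.47), Pcdhgc3 (-0.66 and -0.34) and Cox10 (-0.45 and -0.29). Pcdhgc3 shares exons with other protocadherin genes, and its counts are uncertain.

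**Figure D3:**
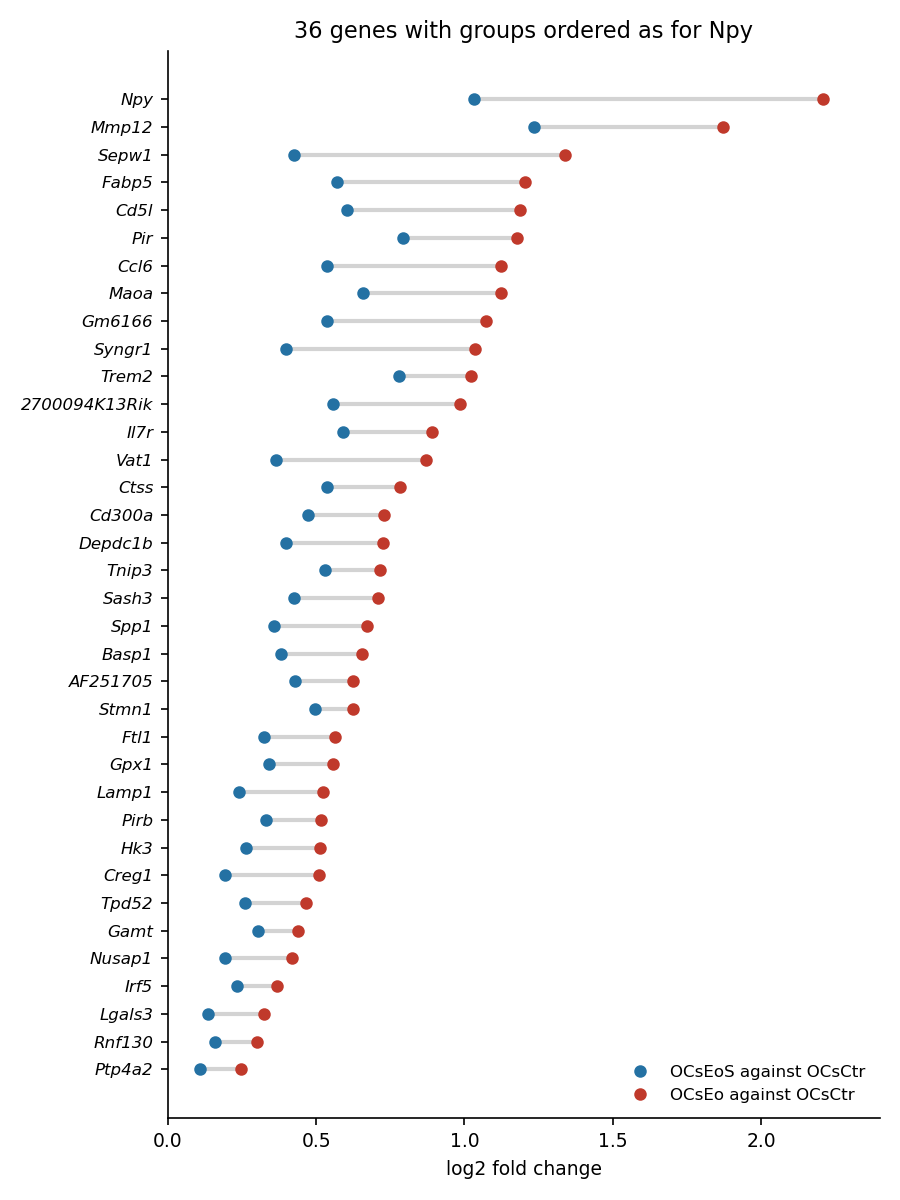
Log2 fold change (horizontal axis) in OCsEo (red) and OCsEoS (blue) against the same OCsCtr libraries for the 36 genes whose 3 groups were apart in the order of Npy, sorted by the change in OCsEo. Npy is at the top with 2.21 and 1.03, followed by Mmp12 with 1.87 and 1.24.

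Within groups, Npy varied more than most genes. After the mean of each group was taken out, its log2 CPM had an SD of 0.28, against a median of 0.20 over the tested genes, and 62.7% of them had a smaller one. Relative to the group mean, the OCsCtr libraries stood at 0.14, -0.14, -0.37 and 0.37 on the log2 scale. The OCsEo libraries stood at 0.00, -0.28, 0.07 and 0.20, and the OCsEoS libraries at 0.26, -0.26, -0.24 and 0.24. Replicate 4 lay above and replicate 2 below the mean in each of the 3 groups, while over all genes the deviations of same-numbered libraries correlated at -0.04 to 0.09 and 9 of 12 libraries correlated best with a library of their own number.

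These deviations were compared over the 12 libraries with those of 10630 other genes whose mean log2 CPM reached 1, which leaves 9 degrees of freedom. The points share their library, depth and normalization, so the correlations are a description. The highest Pearson r were those of Jade2 (0.90), Vat1 (0.88), Nt5dc2 (0.87), Gm5518 (0.86), Plxnc1 (0.86), Fut4 (0.86), S1pr1 (0.84), Dubr (0.84), Pias3 (0.84) and P2ry6 (0.84). Jade2 is part of a histone acetyltransferase complex, Plxnc1 is a semaphorin receptor, Fut4 a fucosyltransferase, S1pr1 the receptor through which sphingosine 1-phosphate steers osteoclast precursors, Pias3 an inhibitor of STAT3 and P2ry6 a receptor for UDP. The lowest r were those of Btbd1 (-0.96), Csnk1a1 (-0.92), Ank (-0.90), Eefsec (-0.88) and Slc30a6 (-0.87). Without OCsCtr replicates 3 and 4, whose Npy deviations were farthest from the median, r lay between 0.75 and 0.90 for the former and between -0.94 and -0.82 for the latter.

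Over all 13681 tested genes, 1% had an r above 0.70 and 1% below -0.71, and 32 genes reached 0.8 or more and 32 reached -0.8 or less. With the mean of each replicate number taken out as well, r fell to 0.22 for Dubr, 0.41 for P2ry6 and 0.60 for Vat1, whereas it was 0.79 for Jade2 and 0.96 for Pias3. On the negative side it became -0.43 for Ank, -0.57 for Eefsec and -0.65 for Slc30a6, and it was -0.83 for Btbd1. Vat1, a membrane protein of vesicles, and Ank, a transporter of pyrophosphate, also belonged to the genes ordered like Npy and in the reverse order. Vat1 had 185 ± 17.9 CPM in OCsCtr, 338 ± 11.1 CPM in OCsEo and 238 ± 21.1 CPM in OCsEoS. Jade2, in contrast, had 7.63 ± 1.22, 8.15 ± 1.13 and 7.37 ± 0.77 CPM and log2 fold changes of 0.10 and -0.05. Of the 35 other genes ordered like Npy, 34 had an r above 0, with a median of 0.29, whereas 46.9% of all tested genes had an r above 0. These genes were chosen by their levels in the same libraries and are not independent of each other, so this count is a description.

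**Figure D4:**
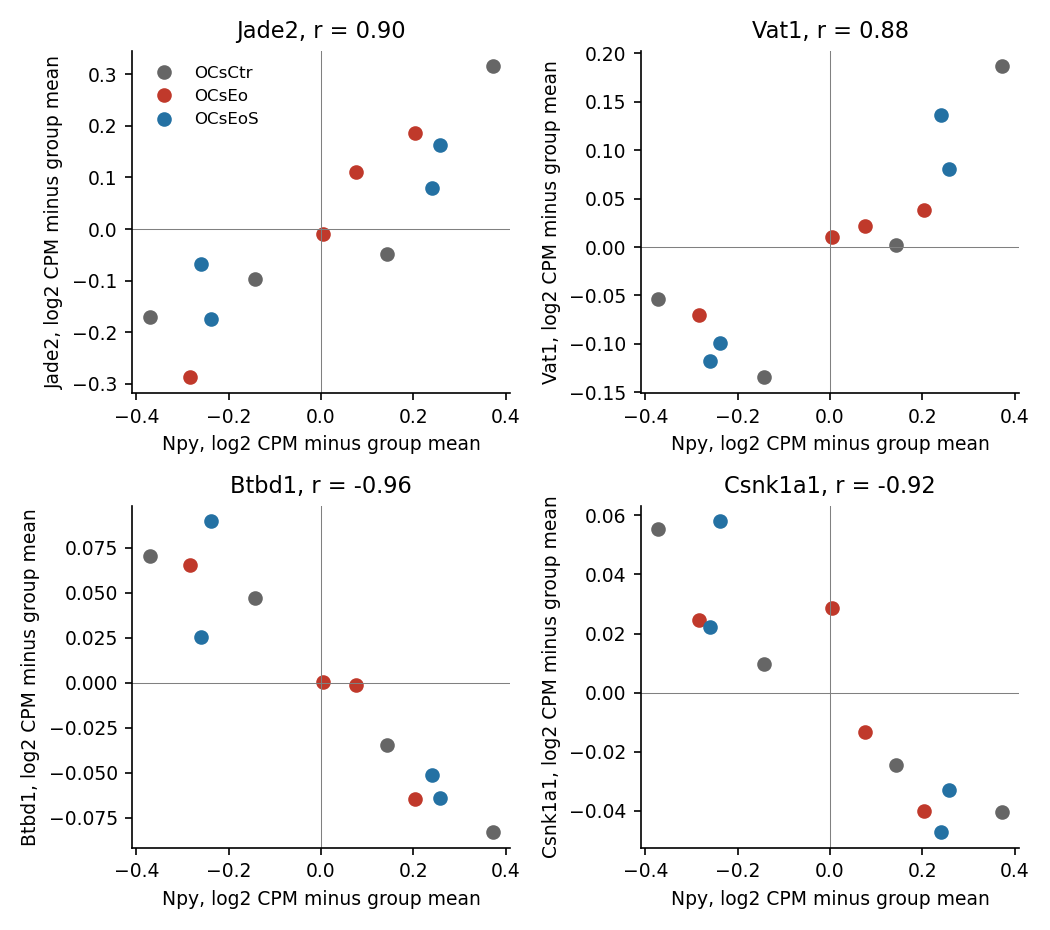
Deviation of Npy from its group mean (horizontal axis, log2 CPM) against that of 4 genes (vertical axes, each on its own scale), 1 point per library with groups in colour. Jade2 and Vat1 are high where Npy is high (r = 0.90 and 0.88), and Btbd1 and Csnk1a1 are low there (r = -0.96 and -0.92), over smaller ranges than Npy.

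Markers of the cells that the cultures could hold were set beside Npy. Osteoclast markers (10 genes, all tested) summed to 28347 to 34483 CPM in OCsCtr, 18087 to 23197 CPM in OCsEo and 14938 to 22163 CPM in OCsEoS. In each stimulated group 8 of the 10 fell, against 2.61% and 4.11% of all tested genes in OCsEo and OCsEoS. The study had already reported lower Acp5, Ctsk, Mmp9, Oscar, Ocstamp, Atp6v0d2 and Itgb3 in these libraries, so this count is not independent of that report. Macrophage markers (10 genes) summed to 5264 to 5809, 5826 to 7276 and 5517 to 6576 CPM, and 2 rose in OCsEo and 6 in OCsEoS, against 3.27% and 3.63% of all tested genes. Both lists moved with the groups, and the osteoclast sums of OCsEo and OCsEoS overlapped. Within groups, all 10 osteoclast markers had a negative r with Npy (median -0.52) and 9 of 10 macrophage markers a positive one (median 0.52). Of all tested genes, 46.9% had an r above 0. The log2 sums of these lists had an r of -0.41 and 0.37 with Npy. Genes of a list come from the same 12 libraries and are not independent of each other. Here and for the marker lists below, such counts of r are therefore a description. Their part in the Npy levels was not tested.

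Eosinophil genes were set beside Npy because eosinophils had been added to OCsEo. The eosinophil list held 10 genes, of which Ear10 had 0 counts throughout and 4 were tested. Its sum was 56.4 to 73.4 CPM in OCsCtr, 53.8 to 65.5 CPM in OCsEo and 48.6 to 54.4 CPM in OCsEoS, most of which was Ccr3. Without Ccr3 the sums were 5.10 to 10.6, 8.17 to 12.3 and 1.31 to 3.70 CPM, so that OCsEoS lay lowest. Much of this sum was Prg2, a granule protein gene, at 5.53 ± 1.92, 5.49 ± 1.39 and 0.82 ± 0.84 CPM in OCsCtr, OCsEo and OCsEoS, which fell in OCsEoS against OCsCtr (log2 fold change -2.74, adjusted p = 0.0014). Epx, the eosinophil peroxidase gene, had 0 to 6 counts per library in OCsCtr, 0 to 18 in OCsEo and 0 in all OCsEoS libraries. Siglecf, a surface marker used to sort the eosinophils, rose in OCsEo from 0.43 ± 0.20 to 2.94 ± 0.32 CPM (log2 fold change 2.76, adjusted p = 5.6e-04) and had 0.83 ± 0.45 CPM in OCsEoS (log2 fold change against OCsCtr 0.94, adjusted p = 0.18), so that its means ran in the order of Npy. By library, Siglecf had 9, 22, 18 and 7 counts in OCsCtr, 97, 95, 128 and 88 counts in OCsEo and 21, 45, 8 and 35 counts in OCsEoS, and the ranges of OCsEoS and OCsCtr overlapped. All 4 tested genes of the eosinophil list had a negative within-group r with Npy (median -0.38).

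Neutrophil markers (11 genes, all tested) summed to 340 to 486 CPM in OCsCtr, 493 to 645 CPM in OCsEo and 387 to 447 CPM in OCsEoS, and 2 of 11 rose in OCsEo, against 3.27% of all tested genes. Mpo, Ngp and Ltf, 3 of the 11, fell in OCsEoS against OCsEo, against 0.307% of all tested genes. The study counts Mpo and Retnlg, both on this list, among eosinophil-related genes found in osteoclasts after co-culture. Which cells these reads came from was not tested. Within groups, 10 of 11 had a positive r with Npy (median 0.24), and the sums of OCsEoS lay inside the range of OCsCtr. Megakaryocyte markers, of a lineage that also makes neuropeptide Y, summed to 73.8 to 111, 64.6 to 86.3 and 53.5 to 72.6 CPM in OCsCtr, OCsEo and OCsEoS. Within groups all 9 megakaryocyte markers had a positive r with Npy (median 0.40). B cell markers (8 genes, all tested) summed to 32.1 to 83.8 CPM in OCsCtr, 75.5 to 92.5 CPM in OCsEo and 60.1 to 77.6 CPM in OCsEoS, so that their means of 55.1, 84.5 and 71.3 CPM ran in the order of Npy while the ranges overlapped. All 8 had a positive within-group r with Npy (median 0.38). Only 1 of the 8, the kappa light chain gene Igkc, was called in OCsEo and OCsEoS, against 3.27% and 3.63% of all tested genes called higher. Of the sums, Igkc made up 7.92 to 23.6 CPM in OCsCtr, 25.8 to 38.8 CPM in OCsEo and 18.9 to 35.5 CPM in OCsEoS. Igkc rose in OCsEo (log2 fold change 1.13, adjusted p = 0.0045) and in OCsEoS (0.80, adjusted p = 0.032). The second call was lost without OCsCtr replicate 2 or 3, without OCsEoS replicate 3 or 4 and in DESeq2, with 0.59 to 0.80.

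T cell markers summed to 1.88 to 4.36, 3.64 to 6.12 and 3.06 to 5.61 CPM in OCsCtr, OCsEo and OCsEoS, and basophil and mast cell markers to 6.14 to 8.30, 5.62 to 7.35 and 3.79 to 6.91 CPM. Of the sympathetic neuron markers, Th, Dbh and Slc6a2, which encode enzymes and the transporter of noradrenaline, had 0 counts in all 12 libraries, and the list summed to 2.50 to 4.74 CPM over all libraries. Beyond the values given here, the part of these cells in the Npy levels was not tested.

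**Figure D5:**
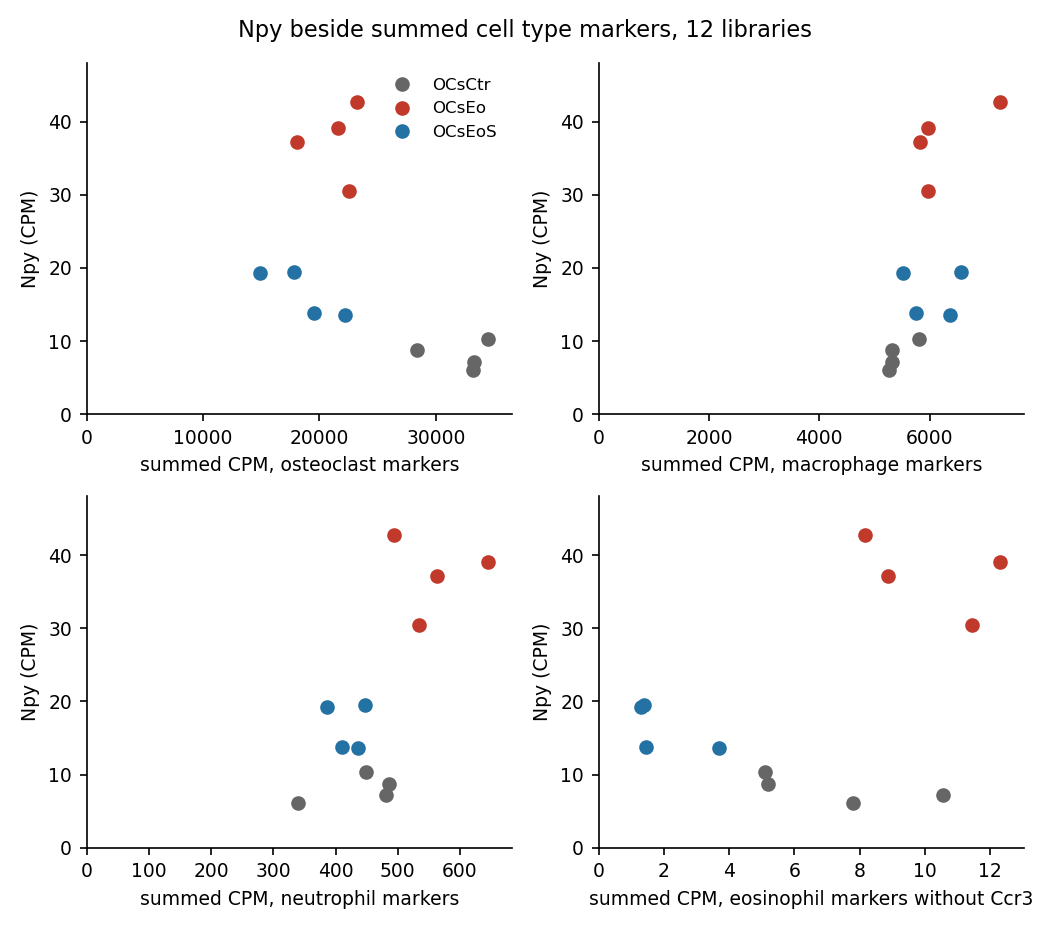
Npy (vertical axes, CPM) against the summed CPM of 4 marker lists (horizontal axes, linear from 0), 1 point per library with groups in colour. The osteoclast sums of OCsEo and OCsEoS overlap, and OCsEoS libraries have the lowest eosinophil sums without Ccr3, 1.31 to 3.70 CPM.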

How the data were processed

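Per the study's methods, the authors removed low-quality reads, aligned paired-end reads with HISAT2 2.0.5 to mm10 and deposited raw counts per gene. The strand setting and annotation release are not given in the sources used here. Totals were 27837530 to 40327869 counts per library, and replicate pairs differed beyond sampling noise. Genes passing filterByExpr (minimum count 10) were fitted over all 12 libraries without a block with edgeR 4.0.16 (R 4.3.3, TMM scaling), and DESeq2 1.42.0 was an alternative. CPM divide counts by the scaled total, and RPKM also by the deposited gene length in kilobases. Log2 CPM used a prior count of 2. Calls needed an adjusted p under 0.05 and a log2 fold change beyond 0.5 in either direction. The steps were tested on simulated data.

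Named genes were members of the NPY lists with a call or a mean of at least 1 CPM, tested neighbours within 500 kb, the 10 highest and 5 lowest within-group correlations, and the 10 and 5 largest changes among ordered genes whose mean log2 CPM reached 1. A few further genes (Pcsk1, Pcsk2, Chga, Chgb, Scg2, Scg3, Ctsk and Spp1) were named after their values were seen. Npy, these lists and the tests were chosen with earlier results of these data known. Promoter and motif searches used RefSeq windows of 250 bases. Other scalings, filters, fits, a replicate block, thinning and leaving out libraries were tried, and the removal of a gene length trend was added after the data were seen.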

Additional observations from a re-analysis of the deposited data

Results flagged for a closer look

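Of 147 groups of 4 libraries examined (Npy, the NPY list genes with detail, the tested neighbours and the marker sums), 8 held a library far from the other 3, and chance gives about 1 in 20. No group of Npy was among them. Adcy3 was at 163 CPM in OCsEoS replicate 2, against 127 to 129 CPM in the others. Foxo1 was at 5.73 CPM in OCsEoS replicate 1 (others 7.54 to 7.58), Pam at 69.8 CPM in OCsCtr replicate 1 (others 57.9 to 59.4) and Stat3 at 33.0 CPM in OCsEo replicate 2 (others 24.4 to 25.3). The eosinophil markers without Ccr3 summed to 3.70 CPM in OCsEoS replicate 2 (others 1.31 to 1.45), and the osteoblast and stromal markers to 47.6 CPM in OCsEo replicate 2 (others 14.4 to 17.0). The macrophage markers summed to 5809 CPM in OCsCtr replicate 4 (others 5264 to 5327) and to 7276 CPM in OCsEo replicate 4 (others 5826 to 5978), and these were also the libraries with the most Npy in their groups. Their part in the Npy values was not tested.

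Of the NPY list genes, Anpep differed between the stimulated groups, with a log2 fold change of -0.51 in OCsEoS against OCsEo (edgeR, adjusted p = 0.020, range over the alternatives 6.3e-05 to 0.082), and all 4 OCsEoS libraries lay below all 4 OCsEo libraries.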

How the results depend on the processing

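Under all 21 alternatives tried for each of the 3 comparisons, the log2 fold changes of Npy kept their direction, at 2.10 to 2.35 in OCsEo against OCsCtr, 0.92 to 1.17 in OCsEoS against OCsCtr and -1.26 to -1.09 in OCsEoS against OCsEo. With no threshold on the fold change, 8 and 9 NPY list genes were called in OCsEo and OCsEoS against OCsCtr in place of 4 and 5, and with no filter 2 in OCsEoS against OCsEo in place of 1. With the gene length trend removed, an alternative added after the data were seen, the counts were 2 (OCsEoS against OCsCtr) and 0 (OCsEoS against OCsEo), and 1 neighbour, Dfna5, was called in OCsEo. Leaving out 1 library at a time gave 4 to 6, 1 to 5 and 0 to 2 NPY list genes in the 3 comparisons, with 1 left in OCsEoS against OCsCtr without OCsCtr replicate 2 or OCsEoS replicate 1. It also gave 0 to 1 neighbours in OCsEo, 38 to 59 genes ordered like Npy (59 without OCsEo replicate 2, 56 without OCsEoS replicate 4, where fewer libraries make the order easier to meet) and 85 to 154 genes with an absolute within-group r of at least 0.8 in place of 64. The latter number was 373 in the 8 stimulated libraries alone, 193 without the 2 farthest libraries and 423 with the replicate block, each of which leaves fewer degrees of freedom. Whether replicate numbers pair the samples was not settled. Deviations of same-numbered libraries correlated at only -0.04 to 0.09, but 9 of 12 libraries correlated best with their own number. The block gave Npy log2 fold changes of 2.22, 1.03 and -1.19 and left the counts of called NPY list genes at 4, 5 and 1. For other genes, 41 calls were lost and 9 were gained over all alternatives, and none reversed. The cause of these changes was not tested. Depth limits the genes near 1 CPM, such as Penk, Dpp4 and Cpe.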
